A study of Mus musculus with 10 samples.

Results

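The comparison was between CD43- splenic B-cells of 3'RR-deficient mice and of wild-type (wt) mice, both without stimulation, and it took 4 of the 10 libraries of a small RNA sequencing series. They were chosen by their labels, 2 libraries for each genotype, numbered 1 and 2, and every one of the 6968 rows of the count table was kept in view whatever its type. The wt mice carried no deletion per the labels, and the 3'RR-deficient mice lacked the regulatory region at the 3' end (3'RR) of Igh, the locus of the immunoglobulin heavy chain. Both lines were on a 129 background per the methods of the study. Per the labels the cells stayed 2 days in growth medium without lipopolysaccharide (LPS), and cells of 2 mice were pooled for each library. A replicate is therefore a pool and not an animal, and the p-values measure only the spread between these samples. The methods of the study describe cells taken before stimulation for another kind of library, so the labels are followed here. The other 6 libraries were LPS-stimulated cells of both genotypes (2 each) and 1 non-stimulated and 1 LPS-stimulated library of mice lacking the Eµ enhancer.

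The 3'RR is a group of enhancers downstream of the constant genes of Igh, known for its part in heavy chain transcription and class switch recombination in mature B-cells. MicroRNAs are short RNAs cut from hairpin precursors that guide Argonaute proteins to messenger RNAs, mainly through their seed, bases 2 to 8. Small nucleolar RNAs (snoRNAs) guide the chemical modification of ribosomal and spliceosomal RNA and often lie in introns of host genes, tRNAs carry amino acids to the ribosome, and piRNAs are known mainly from the germline. The rows called piRNA clusters are long genomic intervals in which reads of any small RNA can be counted.

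The mature sequences of the microRNAs on which the results turn are given first, with the seed in capitals, from RefSeq (GRCm38.p6). The first 4 had small p-values and the others were abundant or are known from lymphocytes.
miR-5121: aGCUUGUGaugagacaucucc
miR-455-3p: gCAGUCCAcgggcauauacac
miR-7032-3p: aUCCUCUCgguaccgcccugca
miR-6936-3p: cGGCGCGCgcggucgcucacc
let-7a-5p: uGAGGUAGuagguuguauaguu
let-7f-5p: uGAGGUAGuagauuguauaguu
let-7g-5p: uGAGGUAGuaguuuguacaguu
miR-26a-5p: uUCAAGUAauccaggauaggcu
miR-26b-5p: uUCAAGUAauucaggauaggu
miR-142a-5p: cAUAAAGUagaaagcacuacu
miR-21a-5p: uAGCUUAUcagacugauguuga
miR-181a-5p: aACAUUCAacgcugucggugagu
miR-155-5p: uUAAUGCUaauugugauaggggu
The let-7 members share the seed GAGGUAG and both miR-26 members share UCAAGUA, while the 4 sequences with small p-values have 4 different seeds.

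The libraries differed more by their number than by their genotype. The totals were 15073103 counts in wt replicate 1 and 11915044 in 3'RR-deficient replicate 1, but 3482540.0 and 3756662 in the replicates 2. Mature microRNAs took 82.0% of the counts of wt replicate 1 (Wilson 95% interval 82.01 to 82.05) and 80.9% of 3'RR-deficient replicate 1 (80.84 to 80.89), but 63.7% (63.61 to 63.71) and 67.2% (67.17 to 67.27) in the replicates 2. snoRNAs took 3.23% and 3.00% in the replicates 1 and 8.57% and 6.02% in the replicates 2, wt first. tRNAs took 6.11% and 6.73%, then 11.96% and 13.35%. Each of these shares was nearer to that of the same-numbered library of the other genotype than to that of its own genotype. Intervals here are for counting error only and treat each read as independent. PCR reads are not independent molecules, so that the intervals can be too narrow even for that error. An exact permutation test of 2 against 2 libraries cannot go below p = 0.333.

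**Figure D1:**
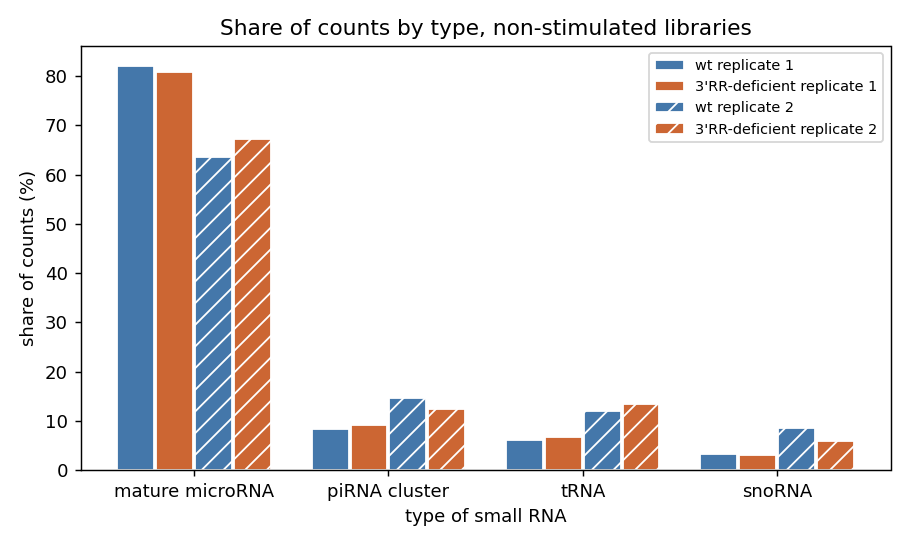
Share of all counts (%, from 0) taken by each of the 4 largest types of small RNA in each of the 4 non-stimulated libraries, with colour for genotype and hatching for replicate 2. Bars of the same number stand close together, for mature microRNAs at 82.0% and 80.9% against 63.7% and 67.2%.

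The same order held for single features. Over the 484 features whose mean reached 100 CPM in a genotype (counts scaled by TMM to a common library size), the median absolute log2 difference between genotypes was 0.43 for the replicates 1 and 0.25 for the replicates 2, against 0.95 between the wt replicates and 0.76 between the 3'RR-deficient replicates. In 358 of them (74.0%) the replicates lay further apart than the genotypes did. Among abundant mature microRNAs this was so for 134 of 150 (89.3%).

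No feature of any type passed the test. edgeR's quasi-likelihood test on the 3987 features that passed the filter on low counts called 0 at an adjusted p under 0.05 (0%), with a smallest adjusted p of 1, and 59 had an unadjusted p under 0.05 (1.48%). The tested features were 603 mature and 110 hairpin microRNAs, 423 tRNAs, 282 snoRNAs, 159 snRNAs, 128 rRNAs, 71 miscellaneous RNAs, 2208 piRNA clusters and 3 of other types. DESeq2's Wald test on the same features called 2, both lower in 3'RR-deficient cells, and edgeR without a filter called those 2 as well. Both are snoRNAs and are described next. The unequal response of the genotypes to LPS (the interaction in the same edgeR fit) gave 0 calls as well, with a smallest adjusted p of 1.

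The feature with the smallest p was the snoRNA listed as ENSMUST00000158915 (mm10, chr19:17825520-17825627, plus strand, in no gene of the annotation used). It had 203 and 191 counts in the wt libraries and 21 and 9 in the 3'RR-deficient ones, which is 22.0 and 42.3 CPM against 3.37 and 1.85 CPM. The groups did not overlap, and both 3'RR-deficient libraries were low. The log2 fold change was -3.60 ± 0.68 (SE, n = 2 and 2; edgeR adjusted p = 1, DESeq2 adjusted p = 0.005172). The second snoRNA, ENSMUST00000158551, lies in an intron of Spats2l (chr1:57865739-57865840, plus strand). It had 116 and 72 counts in wt, against 9 and 1 in 3'RR-deficient libraries, or 12.54 and 15.95 CPM against 1.45 and 0.205 CPM. Its log2 fold change was -4.03 ± 0.85 (SE, n = 2 and 2; edgeR adjusted p = 1, DESeq2 adjusted p = 0.02558). The LPS-stimulated libraries, which entered the same fit and its estimate of the spread but not the fold changes above, also had lower values in the 3'RR-deficient cells. ENSMUST00000158915 had 257 and 372 counts in wt, against 13 and 20 in 3'RR-deficient LPS libraries, and ENSMUST00000158551 had 102 and 318 against 42 and 53. Whether the LPS-stimulated cells came from the same mice is not stated by the labels.

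miR-5121 had the smallest p among mature microRNAs. Its level was 126 and 65.1 CPM in the wt libraries and 14.0 and 6.57 CPM in the 3'RR-deficient ones, so that the groups did not overlap. The log2 fold change was -3.22 ± 0.88 (SE, n = 2 and 2; 95% interval -5.22 to -1.21; edgeR adjusted p = 1), and the ratios of the same-numbered libraries were close to each other at -3.16 and -3.27. The row lies at chr7:45126925-45126945 on the minus strand, within Rpl13a, a gene of a large ribosomal subunit protein, and inside Snord33 (45126864 to 45126947), a snoRNA encoded in that gene. Reads of Snord33 and of miR-5121 can thus not be told apart by position, and Snord33 has no row of its own in the table. With LPS the row held 13157 and 10018 counts in wt, against 1249 and 1350.0 in 3'RR-deficient libraries, and the non-stimulated Eµ-deficient library held 68 of 13503229 counts.

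miR-455-3p, encoded in an intron of the collagen gene Col27a1 (chr4:63256904-63256924, plus strand), was the one feature of the naming rule for abundant features: at least 100 CPM in a genotype, no overlap, and at least 2-fold apart in both pairs. It had 83.5 and 107.7 CPM in wt and 364 and 253 CPM in 3'RR-deficient libraries. Both 3'RR-deficient libraries stood above both wt libraries. The log2 fold change was 1.69 ± 0.58 (SE, n = 2 and 2; 95% interval 0.38 to 3.01; edgeR adjusted p = 1), with pair ratios of 2.12 and 1.23. As raw counts without stimulation it had 772 of 15073103 and 486 of 3482540 in wt. The 3'RR-deficient libraries had 2268 of 11915044 and 1233 of 3756662, and the Eµ-deficient library had 425 of 13503229. With LPS its counts were 114 and 145 in wt, against 509 and 1059 in 3'RR-deficient libraries.

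The other mature microRNAs with small p-values were rare. miR-7032-3p, in an intron of Hip1r, had 3 and 0 counts in wt, against 30 and 20 in 3'RR-deficient libraries, which is higher by at least 9.03-fold against a floor of 3 counts in each wt library. miR-6936-3p, in an exon of Sirt7, had 6 and 2 counts against 13 and 16, and a log2 fold change of 2.23 ± 0.72 (SE, n = 2 and 2; edgeR adjusted p = 1). miR-8108 had 9 and 9 counts in wt, against 0 and 0 in 3'RR-deficient libraries, which is lower by at least 2.70-fold. miR-6546-5p had 10 counts in 3'RR-deficient replicate 2 and 0 in the other 3 libraries, so that 1 library decides its value. The hairpin row of Mir674, named here after its values were seen, had 1 and 0 counts in wt, against 23 and 12 in 3'RR-deficient libraries, which is higher by at least 6.23-fold. With LPS it had 3.75 and 3.33 CPM in wt and 4.02 and 2.16 CPM in 3'RR-deficient libraries, where the groups overlapped.

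Among the piRNA clusters, piRNAclusterDB_1277 and piRNAclusterDB_2315 had the smallest p. piRNAclusterDB_1277 had 7.35 and 3.32 CPM in wt and 0.964 and 1.03 CPM in 3'RR-deficient libraries. piRNAclusterDB_2315 had 22.5 and 13.1 CPM against 4.18 and 5.96 CPM, with a log2 fold change of -1.82 ± 0.54 (SE, n = 2 and 2; edgeR adjusted p = 1). Both were lower without overlap, as were 348 of the 2208 piRNA clusters tested (15.8%, beside 10.8% of all features), while 263 were higher without overlap (11.9%, beside 9.81%). Under total count scaling these counts were 227 (10.3%, beside 8.25% of all features) and 92 (4.17%, beside 4.26%). P-values were larger in the remaining types. The smallest unadjusted p was 0.04232 for miscellaneous RNA (Gm22895), 0.08315 for rRNA (n-R5s67), 0.1665 for tRNA (chr13.tRNA1053-LysCTT) and 0.1749 for snRNA (Gm22850), each from edgeR.

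**Figure D2:**
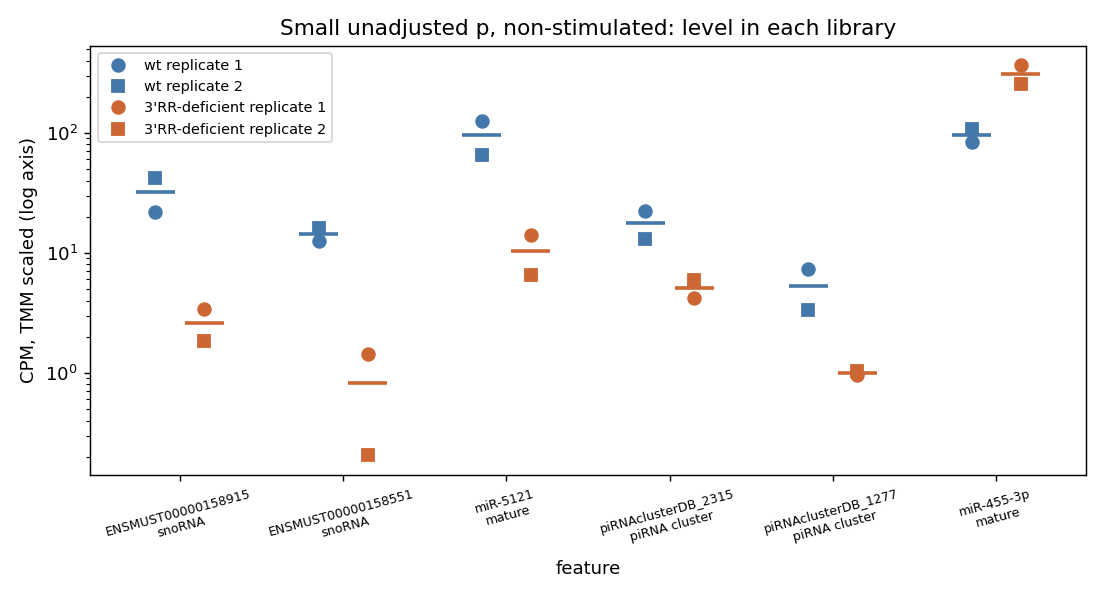
Level of 6 features with small unadjusted p (CPM after TMM scaling, log axis) in each of the 4 non-stimulated libraries, with circles for replicate 1, squares for replicate 2 and a bar at the mean of 2. miR-455-3p stands higher in both 3'RR-deficient libraries and the other 5 stand lower, from 126 and 65.1 to 14.0 and 6.57 CPM for miR-5121. The 6 are a selection. Rare features that were higher with a smaller p than miR-455-3p, such as the Mir674 hairpin, miR-6936-3p and miR-7032-3p, are not shown.

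Same-numbered libraries were compared directly as well, 3'RR-deficient replicate 1 with wt replicate 1 and replicate 2 with replicate 2. Of the 3987 features, 122 (3.06%) were at least 2-fold apart the same way in both pairs, 55 higher and 67 lower in 3'RR-deficient cells, and 113 were at least 2-fold apart in opposite ways. These are descriptions, as each ratio is of 2 single libraries. Across features the ratios of both pairs had a Pearson r of 0.023 and a Spearman rho of -0.002, where features are not independent replicates. The SD of the ratios was 0.83 for the replicates 1 and 1.03 for the replicates 2. Among the 484 abundant features 2 were 2-fold apart the same way, miR-455-3p and miR-322-3p. miR-322-3p had 145 and 34.1 CPM in wt and 326 and 74.1 CPM in 3'RR-deficient libraries, where the groups overlapped. Without regard to fold, 391 features (9.81%) were higher in both 3'RR-deficient libraries than in both wt libraries, and 432 (10.8%) were lower in both. Under total count scaling these counts were 170 (4.26%) and 329 (8.25%), so that the shares of all features given beside other counts hold for TMM scaling unless the scaling is named.

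**Figure D3:**
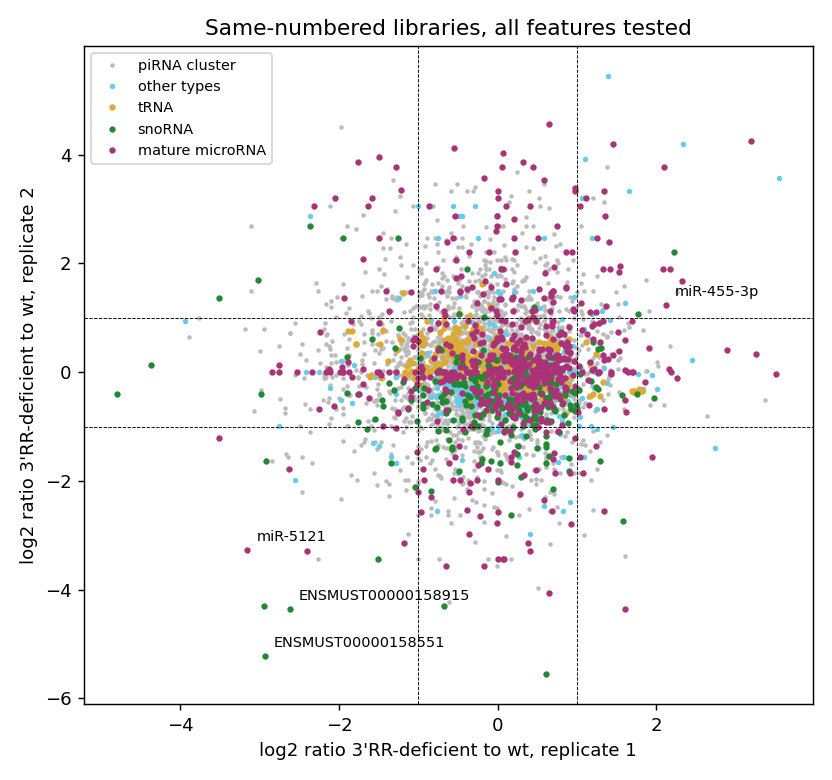
Log2 ratio between 3'RR-deficient and wt in the replicates 1 (horizontal axis) and in the replicates 2 (vertical axis), 1 point for each of the 3987 features tested, coloured by type, with dashed lines at 2-fold. The points form a cloud without slope (r = 0.023), with miR-5121 and both named snoRNAs low in both pairs and miR-455-3p high in both.

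None of the 15 microRNAs known from lymphocytes passed the test. Their median log2 fold change was 0.31, beside -0.06 over all features tested, and 12 of 15 were above 0. As a class the 603 mature microRNAs tested had a median of 0.15 with 360 above 0, and the 150 abundant ones a median of 0.196 with 112 above 0, so that the list stood near its class. In 2 of the 15 (13.3%) the groups were apart and higher, beside 9.81% of all features tested. Under total count scaling, which moved the median of all features to -0.14, the median of the list was 0.09 and 9 were above 0, and 302 of the 603 mature microRNAs were. miR-155-5p, which is induced in activated B-cells, had 5994 and 4906 CPM in wt and 8484 and 4312 CPM in 3'RR-deficient libraries. Its log2 fold change was 0.23 ± 0.75 (SE, n = 2 and 2). miR-150-5p, a microRNA of mature lymphocytes that targets Myb, had 38410.0 and 37470.0 CPM against 58190.0 and 35750.0 CPM. The 3'RR-deficient libraries of both microRNAs lay on either side of the wt libraries.

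miR-181a-5p, known for tuning antigen receptor signals in lymphocytes, had 21640.0 and 29190.0 CPM in wt and 35940.0 and 32090.0 CPM in 3'RR-deficient libraries, without overlap, with a log2 fold change of 0.42 ± 0.75 (SE, n = 2 and 2; edgeR adjusted p = 1). miR-34a-5p, a p53 target that restrains early B-cell development, had 39.6 and 20.4 CPM against 53.8 and 41.5 CPM, also without overlap. Its log2 fold change was 0.67 ± 0.56 (SE, n = 2 and 2). miR-146a-5p, a brake on NF-kB signalling, had 35000 and 7755 CPM in wt and 54500 and 10480.0 CPM in 3'RR-deficient libraries. In this microRNA the replicates were further apart than the genotypes. miR-28a-5p had the highest value of the list, 0.80 ± 0.86 (log2 fold change and SE, n = 2 and 2), and miR-142a-3p the lowest, -1.16 ± 1.63. miR-142a-3p, made throughout the blood lineages, had 9233 and 176 CPM in wt and 4060.0 and 162 CPM in 3'RR-deficient libraries. Each replicate 2 of it thus held a small part of the level of replicate 1.

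**Figure D4:**
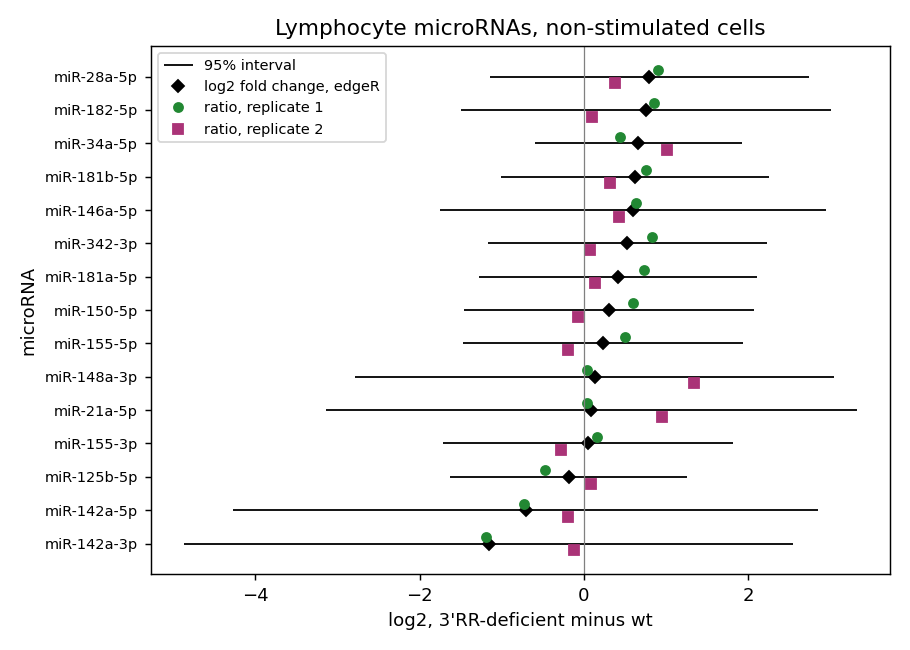
Log2 fold change of 3'RR-deficient against wt for the 15 lymphocyte microRNAs (diamonds, with the 95% interval of the edgeR fit as a line) and the log2 ratio of the replicates 1 (circles) and of the replicates 2 (squares). Every interval spans 0, from miR-28a-5p at 0.80 to miR-142a-3p at -1.16.

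The 8 most abundant mature microRNAs were let-7a-5p, let-7f-5p, let-7g-5p, miR-26a-5p, miR-26b-5p, miR-21a-5p, miR-142a-5p and miR-92a-3p. The log2 fold changes of these 8 ranged from -0.71 (miR-142a-5p) to 0.37 (miR-26b-5p), with standard errors from 0.76 to 1.57, and the groups of all 8 overlapped. let-7a-5p had 86600 and 41560.0 CPM in wt and 110800 and 45050.0 CPM in 3'RR-deficient libraries. miR-21a-5p had 113800 and 5016 CPM against 117100 and 9697 CPM, and miR-142a-5p had 171000 and 4894 CPM against 103300 and 4295 CPM. Replicate 1 was higher than replicate 2 in both genotypes for 7 of the 8, and miR-92a-3p was the exception, with 31170.0 and 61150.0 CPM in wt and 53500 and 60210.0 CPM in 3'RR-deficient libraries.

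The families were described by their counts and medians, since no member of any passed the test. All 10 let-7 members were above 0, with a median log2 fold change of 0.21 and a range from 0.01 (let-7k) to 0.32 (let-7i-5p), and 9 were above 0 under total count scaling, where the median was 0.058. The family median was 0.40 in the replicates 1 and 0.03 in the replicates 2, and near the 0.196 of abundant mature microRNAs. Of 20 tested members of the miR-17-92 family and its paralogues, which support B-cell survival, 18 were above 0 with a median of 0.32. Its range was from -0.40 (miR-18b-5p) to 0.68 (miR-20b-5p), and 13 were above 0 under total count scaling, where the median was 0.12. The median was 0.52 in the replicates 1 and 0.02 in the replicates 2. All 6 members of the miR-29 family were below 0, with a median of -0.47, also under total count scaling, where the median was -0.56. miR-29b-3p had the lowest value, -1.06 ± 1.39 (log2 fold change and SE, n = 2 and 2), from 638 and 27.03 CPM in wt and 299.6 and 19.7 CPM in 3'RR-deficient libraries. The miR-15/16 family had a median of 0.29 over 6 members, of which miR-15a-5p (1 of 6, 16.7%, beside 10.8% of all features) was lower without overlap. Under total count scaling the median was 0.27 and 0 of 6 were lower without overlap. miR-15a-5p, encoded in an intron of Dleu2, had 1015 and 898 CPM in wt and 834 and 700.1 CPM in 3'RR-deficient libraries. The miR-30 family had a median of 0.16 over 8 members, 6 of them above 0, and under total count scaling a median of 0.005 with 5 above 0. The miR-23/27/24 group had a median of 0.04 over 11 members and of -0.02 under total count scaling.

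snoRNAs leaned to lower values in 3'RR-deficient cells, and so did snRNAs and rRNAs. The median log2 fold change of all tested snoRNAs was -0.28, with 67 of 282 above 0. It was -0.29 for snRNAs, with 32 of 159 above 0, and -0.17 for rRNAs, with 23 of 128. Under total count scaling these medians were -0.435, -0.36 and -0.21. Of the 61 snoRNAs with at least 100 CPM, 13 (21.3%) were lower without overlap and 0 were higher. Among all 484 abundant features 3.51% were lower and 9.50% higher. Under total count scaling 10 of 61 (16.4%) were lower and 0 higher, beside 7.02% lower and 2.89% higher among the 484. The median log2 difference of the 61 was 0.18 in the replicates 1 and -0.54 in the replicates 2. Over all 484 abundant features these medians were 0.34 and -0.07, and under total count scaling those of the snoRNAs were -0.05 and -0.54. The share of snoRNAs in all counts, given above, also differed mainly in the replicates 2. Snord47 and Gm22357 both lie in Gas5, a host gene of snoRNAs. Snord47 had 322 and 220.0 CPM in wt and 117 and 154 CPM in 3'RR-deficient libraries, and Gm22357 had 144 and 200.5 CPM against 81.1 and 133 CPM. Snord99, in Snhg12, had 313 and 189 CPM against 154 and 101 CPM. In all of these the groups were apart, and the log2 fold changes were -0.998 ± 0.717, -0.69 ± 0.53 and -0.98 ± 0.66 (SE, n = 2 and 2; edgeR adjusted p = 1 for each). Snord58b of Rpl17 had 598 and 1415 CPM in wt and 348 and 535 CPM in 3'RR-deficient libraries. Its near-identical copies Gm22354, Gm26202 and Gm23301 had log2 fold changes from -1.20 to -1.01 and may share its reads, so that these 4 rows are not 4 separate results. The abundant snoRNAs outside the naming rule were chosen after their values were seen.

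tRNAs leaned the other way, but only under TMM or DESeq2 size factors. Of the 182 tRNA rows with at least 100 CPM, 35 (19.2%) were higher in both 3'RR-deficient libraries and 0 were lower, beside 9.50% and 3.51% of all 484 abundant features, whereas total count scaling gave 7 higher (3.85%) and 18 lower (9.89%), near the 2.89% and 7.02% of the 484 under that scaling. The median log2 difference of the 182 rows was 0.37 in the replicates 1 and -0.04 in the replicates 2. All 14 aspartate and all 15 proline tRNA rows were among the 35, with 4 of 19 lysine rows, 1 of 15 alanine rows and 1 of 13 valine rows. The summed level of the aspartate rows was 18290.0 and 16340.0 CPM in wt and 30760.0 and 23190.0 CPM in 3'RR-deficient libraries. That of the proline rows was 7656 and 8314 CPM against 11090.0 and 11950.0 CPM. The medians of the log2 fold changes were 0.64 for aspartate and 0.58 for proline. Those of the 15 alanine and 13 valine rows were below 0, at -0.65 and -0.20. The lowest alanine row, chr13.tRNA975-AlaAGC, had -1.30 ± 0.98 (log2 fold change and SE, n = 2 and 2), and its groups overlapped. Rows of a tRNA type are copies of nearly the same sequence and share reads, so that they are not independent. The lysine row chr13.tRNA1053-LysCTT had the smallest p of the tRNAs, with 201 and 213 CPM in wt and 475 and 268 CPM in 3'RR-deficient libraries. Its log2 fold change was 0.84 ± 0.56 (SE, n = 2 and 2; edgeR adjusted p = 1).

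**Figure D5:**
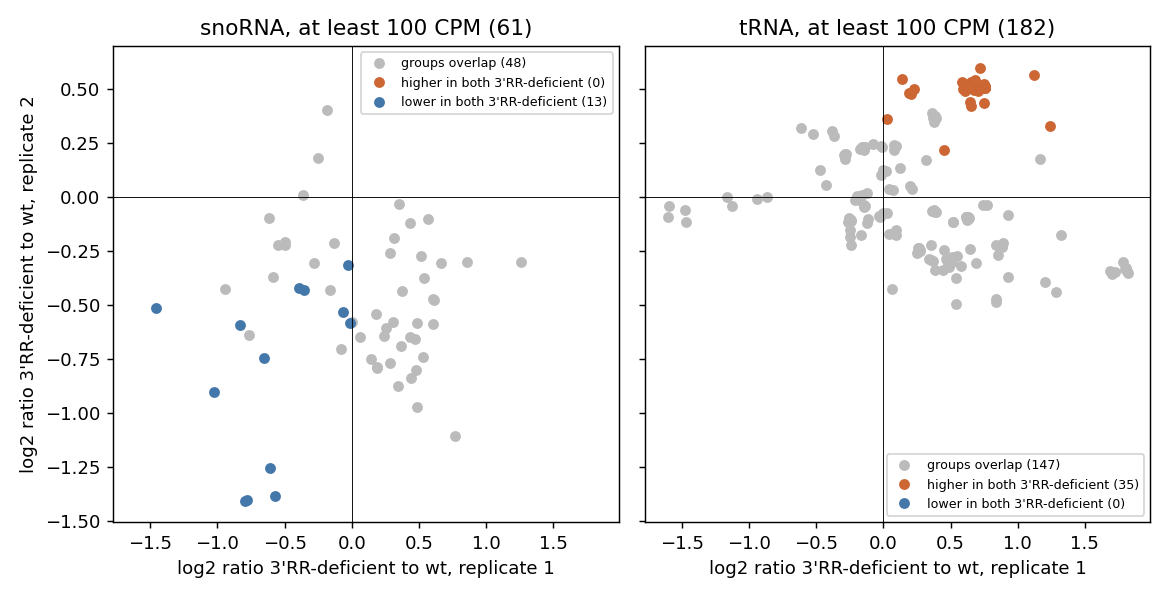
Log2 ratio between 3'RR-deficient and wt in the replicates 1 (horizontal axis) and 2 (vertical axis) for the 61 snoRNAs and the 182 tRNAs with at least 100 CPM under TMM scaling, 1 point per row, coloured where the groups do not overlap. The 13 coloured snoRNAs are lower in both pairs and the 35 coloured tRNAs higher. Under total count scaling 7 of all 182 tRNA rows were higher without overlap and 18 were lower.

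MicroRNAs of other cell types were present in all 4 libraries and varied with them. The 7 tested microRNAs of red cells and platelets summed to 6100.0 and 3258 CPM in wt and 5628 and 8999 CPM in 3'RR-deficient libraries, and their median log2 difference was -0.04 in the replicates 1 and 1.496 in the replicates 2. Of the 7, 5 had a log2 fold change above 0 and 2 below. miR-486a-5p, an erythroid microRNA and the highest of the list, had 810 and 1525 CPM against 1311 and 4302 CPM. Its copy miR-486b-5p counted nearly the same reads, so that the sums hold these reads in 2 rows. The 2 below 0 were miR-144-3p (-1.42) and miR-451a (-0.64). miR-451a had 3582 and 137 CPM in wt and 2133 and 255 CPM in 3'RR-deficient libraries. The 2 strands of the myeloid miR-223 summed to 1916 and 319 CPM in wt and 1820.0 and 723 CPM in 3'RR-deficient libraries. The 11 tested stromal, endothelial and epithelial microRNAs summed to 2873 and 980 CPM against 1930.0 and 835 CPM, with a median of -1.26 in the replicates 1 and 0.07 in the replicates 2. Their median log2 fold change was -0.91, and 1 of 11 (9.09%) was lower without overlap, beside 10.8% of all features. Under total count scaling the median was -1.03 and 4 of 11 (36.4%) were lower without overlap, beside 8.25% of all features. miR-143-3p of smooth muscle and fibroblasts had 861 and 98.4 CPM in wt and 182 and 164 CPM in 3'RR-deficient libraries. The 3 tested microRNAs of other organs summed to between 25.9 and 56.5 CPM, and miR-124-3p of neurons was at 0 in all 4 libraries. No member of these lists passed the test. Their part in the differences above was not tested, and in pooled cells fewer cells of a type and less RNA per cell cannot be told apart.

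The deletion lies on chromosome 12, and rows within 10 Mb of the Igh constant genes were examined for that reason. Of 107 microRNA rows there, 21 were tested and 17 of them were above 0, with a median log2 fold change of 0.91 and medians of 0.21 in the replicates 1 and 1.40 in the replicates 2. None passed the test, and 5 (23.8%) were higher without overlap, beside 9.81% of all features. With every type of small RNA the same window held 38 tested rows, 25 above and 13 below 0, with a median of 0.24, and on the whole of chromosome 12 it was 69 of 134 with a median of 0.01. All 5 belong to the imprinted Dlk1-Dio3 cluster, of which 12 of 84 rows were tested with a median of 1.34. The cluster was at a low level, as its 12 tested rows together summed to 15.03 and 17.51 CPM in wt and 21.4 and 32.2 CPM in 3'RR-deficient libraries. Its highest fitted value was that of miR-494-3p, which rests on levels of 0.108 and 0 CPM in wt and 0.161 and 1.03 CPM in 3'RR-deficient libraries. miR-342-3p, in an intron of Evl and abundant in B-cells, had 4888 and 4152 CPM in wt and 8681 and 4383 CPM in 3'RR-deficient libraries. The 3 hairpin rows beside the constant genes held 0 to 4 counts in each library, so that no difference was detectable at this depth.

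The precision limits what these libraries can show. The median half-width of the 95% interval was 1.72 on the log2 scale, and the biological coefficient of variation of the fit was 58.1%. The interval lay within 2-fold in either direction for 1 of 3976 features with an interval and within 4-fold for 1615 (40.6%). For mature microRNAs these counts were 0 and 139 of 599 (23.2%). These limits are those of the fit without a replicate block. With the block within culture condition the coefficient was 33.8%, and the SE was 0.335 in place of 0.882 for miR-5121 and 0.359 in place of 0.580 for miR-455-3p, with 0 calls as well.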

How the data were processed

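Small RNA was sequenced from pools of 2 mice (NextFlex small RNA kit, 17 PCR cycles, 75 nt reads). The deposited values are raw read counts per feature, without normalization by the authors. The submitters' processing notes name cutadapt 1.2.1, Bowtie2 and mm10; the counting program and the treatment of multiply matching reads are not given in the sources used here. Of 2845 rows with Ensembl transcript names, 2589 were matched in GENCODE M21 and 2494 of these had the same position.

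Counts were fitted with edgeR 4.0.16 in R 4.3.3 (TMM, filterByExpr by group, quasi-likelihood F-test, two-sided, Benjamini-Hochberg over all features tested, adjusted p under 0.05). The 8 wt and 3'RR-deficient libraries shared 1 fit with a mean per group, and the contrast was 3'RR-deficient minus wt, non-stimulated. CPM carry TMM scaling, and pair ratios used a prior count of 2. Depth was 3482540.0 to 15073103 counts, and floors are 3 counts per library. Alternatives were other scalings, filters, DESeq2 1.42.0, microRNAs alone, other libraries in the fit, a replicate block and leaving out each library. The script was tested on simulated data.

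The named features were those with the smallest p (6 mature microRNAs, 2 of every other type), features of at least 100 CPM without overlap and 2-fold apart in both pairs, the 8 most abundant mature microRNAs, and a list of 15 lymphocyte microRNAs. Other listed members appear as counts, medians or extremes. The members and lists were chosen with earlier results of these data known. Features named outside this rule were picked after their values were seen.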

Additional observations from a re-analysis of the deposited data

How the results depend on the processing

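The count of features called stayed at 0 under DESeq2 size factors, total count scaling, a filter of 10 CPM in 2 libraries, microRNAs alone, the 4 non-stimulated libraries alone, all 10 libraries, both replicate blocks and each left-out library (lowest and highest 0 and 0), and was 2 without a filter and 2 with DESeq2's Wald test, the same 2 snoRNAs. The cause was not tested. In the labels, same-numbered libraries are linked by their number alone, and what else they share is not stated. The difference of replicate 2 minus replicate 1 had r = 0.67 between genotypes across features. With the replicate block within culture condition edgeR called 0, with 141 features whose unadjusted p was under 0.05, and miR-5121 had the smallest adjusted p, 0.08143, and with the block in the 4 libraries alone 0, with a smallest adjusted p of 0.7476. The count 2-fold apart in both pairs was 153 with a prior count of 0.5 and 118 under total count scaling, but 33 of 720 for microRNAs alone and 12 at 4-fold, where fewer features or a stricter limit apply by construction. Outside the left-out libraries, 355 of 364 values of the 40 named features kept direction and side of the threshold, 4 passed it (both snoRNAs, in the fits named above) and 5 turned: under total count scaling miR-21a-5p (-0.049), miR-155-5p (-0.002) and miR-155-3p (-0.154), the last also for microRNAs alone (-0.083) and with the replicate block within culture condition (-0.016). With each library left out in turn 19 of 40 features kept their direction in all settings. The log2 fold change of the others ranged from 0 to 7.21 for miR-6546-5p, -1.94 to 0.085 for Gm22042, -2.07 to 0.68 for chr13.tRNA975-AlaAGC, -0.67 to 1.88 for miR-28a-5p, -0.24 to 1.21 for miR-181b-5p, -1.45 to 2.34 for miR-182-5p, -0.031 to 0.97 for miR-342-3p, -4.83 to 3.60 for miR-142a-3p, -1.01 to 2.08 for miR-146a-5p, -4.33 to 3.47 for miR-142a-5p, -0.074 to 0.64 for miR-150-5p, -0.099 to 0.90 for miR-92a-3p, -0.49 to 0.92 for let-7a-5p, -1.82 to 2.37 for miR-26b-5p, -0.32 to 0.67 for miR-155-5p, -0.72 to 1.18 for let-7f-5p, -1.90 to 2.35 for miR-26a-5p, -1.23 to 1.47 for let-7g-5p, -2.05 to 3.56 for miR-148a-3p, -1.29 to 1.08 for miR-155-3p and -2.59 to 3.67 for miR-21a-5p. Of the 19, 9 had log2 values that moved by over 1.5 times: miR-7032-3p (3.76 to 8.30), Gm22895 (-7.68 to -0.902), n-R5s209 (-1.58 to -0.595), chr13.tRNA1053-LysCTT (0.384 to 1.23), Gm22850 (-2.19 to -0.885), Gm22649 (0.281 to 2.44), miR-34a-5p (0.297 to 1.23), miR-181a-5p (0.228 to 0.681) and miR-125b-5p (-0.337 to -0.013). The log2 values of the other 10, whose folds also moved, were ENSMUST00000158915 (-4.10 to -3.02), ENSMUST00000158551 (-6.01 to -3.26), the Mir674 hairpin (4.70 to 7.77), miR-5121 (-3.85 to -2.65), piRNAclusterDB_1277 (-2.84 to -1.72), piRNAclusterDB_2315 (-2.125 to -1.36), miR-6936-3p (1.89 to 2.56), miR-455-3p (1.42 to 1.96), miR-8108 (-7.13 to -6.13) and n-R5s67 (-2.32 to -2.01). A lone library was then assumed to vary like the other groups. Depth in the replicates 2 limits rare features.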

Other observations

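A cluster of microRNAs on chromosome X around miR-322, miR-351, miR-503, miR-542 and miR-450, singled out after its values were seen, had 13 rows, of which 11 were tested. All 11 were above 0, with a median log2 fold change of 0.98 and a range from 0.62 to 1.51. In the replicates 1 all 11 were higher in 3'RR-deficient cells, and in the replicates 2 it was 8 of 11, with median ratios of 1.19 and 0.86. The groups of 2 of the 11 members did not overlap, beside 9.81% of all features tested that were higher in this way, and none passed the edgeR test. miR-351-5p had 89.3 and 68.5 CPM in wt and 206 and 105 CPM in 3'RR-deficient libraries. miR-503-5p had 65.5 and 17.9 CPM against 150.2 and 32.7 CPM. The members are neighbours on 1 strand and are not independent of each other.

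Over all 6968 rows, 3 had at least 10 counts in both 3'RR-deficient libraries and 3 or fewer in both wt libraries: the Mir674 hairpin, miR-7032-3p and miR-382-5p. In the opposite way there were 5, among them miR-7073-5p, with 20 and 12 counts in wt, against 1 and 3 in 3'RR-deficient libraries, and the snoRNA ENSMUST00000158327, with 14 and 19 counts against 0 and 0.

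For the 494 of 603 tested mature microRNAs with a sequence, the log2 difference of replicate 2 minus replicate 1 had a slope on GC content of 1.08 per 10% in wt and of 0.88 in 3'RR-deficient libraries. The corresponding slope of the genotype ratio was 0.20 in the replicates 1 and 0.003 in the replicates 2. These slopes are across microRNAs, which are not independent replicates.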
